A study of Homo sapiens with 8 samples.

Results

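The ERK feedback genes described here were 10 of the 27696 genes in the count table: the phosphatase genes DUSP4, DUSP5 and DUSP6, the Sprouty genes SPRY1, SPRY2 and SPRY4, the Spred genes SPRED1 and SPRED2, and the ETS factor genes ETV4 and ETV5. They were picked by symbol, with earlier results of these data known. All 10 were among the 13798 genes with enough counts to be tested. RNA was sequenced from normal IMR90 cells, a line of human lung fibroblasts, kept for 3 days in medium that IMR90 ER:RAS fibroblasts had conditioned. The donor cells carry RAS fused to the oestrogen receptor, so 4-hydroxy-tamoxifen (4-OHT) switches RAS on and drives them into senescence, and medium was taken at day 0, 4, 7 or 10 of 4-OHT. Recipient cells in these media are called D0, D4, D7 and D10, with 2 libraries each, 1 from each of 2 independent experiments. D0, the reference, also received conditioned medium, taken from the donors at day 0, and all 4 groups are normal recipients of the same line. The conditioned medium was made without serum and a little serum was added back before use.

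ERK is the last kinase of the cascade that runs from growth factor receptors through RAS, RAF and MEK. Active ERK switches on genes whose products turn the cascade down: DUSP proteins remove phosphate from ERK itself, and Sprouty and Spred proteins act upstream, between the receptors and RAF. ETV4 and ETV5 belong to the PEA3 group of ETS transcription factors, which are expressed downstream of the same signal, so the RNA of these genes is widely read as a record of ERK output. Phosphorylation of ERK was not measured in these libraries.

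On GRCh38, DUSP6 (ENSG00000139318.7) lies on the minus strand of chromosome 12 from 89347232 to 89353271, SPRY2 (ENSG00000136158.11) on the minus strand of chromosome 13 from 80335976 to 80340951, SPRY4 (ENSG00000187678.8) on the minus strand of chromosome 5 from 142310427 to 142326455, and ETV4 (ENSG00000175832.12) on the minus strand of chromosome 17 from 43527844 to 43579620. SPRY1 (ENSG00000164056.10) lies on the plus strand of chromosome 4 from 123396795 to 123403760. DUSP5 (ENSG00000138166.5) lies on the plus strand of chromosome 10 from 110497838 to 110511544, ETV5 (ENSG00000244405.7) on the minus strand of chromosome 3 from 186046308 to 186110318, SPRED1 (ENSG00000166068.12) on the plus strand of chromosome 15 from 38252326 to 38357249, and SPRED2 (ENSG00000198369.9) on the minus strand of chromosome 2 from 65310851 to 65432637. All 10 are protein-coding in GENCODE 29, and exon bases here are those of all its exons of a gene, UTRs included. A gene on the opposite strand, AC024909.2, covers 40.5% of the exon bases of DUSP6, and it had 10 to 24 counts per library. For ETV4 the opposite strand gene DHX8 covers 1.89% of exon bases, and for ETV5 DGKG covers 2.83% on the same strand. Whether the counting used strand is not given in the sources used here.

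RefSeq promoter windows (GRCh38.p14, 250 bases before to 50 after the start site) were at hand for 6 of the 10 genes. Only 1 window per gene was searched, so any other start site of a gene was not covered. The windows of DUSP6, SPRY4 and SPRED1 lie wholly inside the gene spans given above. They were searched on both strands for GGAAG, a longer form of GGAA, the core of ETS factor sites. GGAA followed by another letter was not counted, so a window without GGAAG can still hold that core. Also searched for were TGANTCA and TGACGTCA, words of AP-1 and CREB type factors, and the CArG box of serum response factor. GGAAG was found at 6 places in SPRED2, 3 in SPRED1, 2 in DUSP6, 1 in SPRY2 and none in SPRY1 or SPRY4, while 71.9% of 27305 promoters of this length hold at least 1 and 0.798% hold 6 or more. TGANTCA, TGACGTCA and the CArG box, held by 7.76%, 1.98% and 1.29% of promoters, were in none of the 6 windows. The following 4 windows are shown to set DUSP6 and SPRY4 beside SPRED1 and SPRED2, the last of which holds the most copies. DUSP6, SPRY4 and SPRED2 were higher in every D4, D7 and D10 library than in both D0 libraries, and SPRED1 was not. SPRY2, whose window is not shown, was also higher in every later library. Each is written in the direction of the gene, with GGAAG in capitals where it stands on that strand and CTTCC in capitals where GGAAG stands on the other.
DUSP6, chr12:89352452-89352751 (- strand): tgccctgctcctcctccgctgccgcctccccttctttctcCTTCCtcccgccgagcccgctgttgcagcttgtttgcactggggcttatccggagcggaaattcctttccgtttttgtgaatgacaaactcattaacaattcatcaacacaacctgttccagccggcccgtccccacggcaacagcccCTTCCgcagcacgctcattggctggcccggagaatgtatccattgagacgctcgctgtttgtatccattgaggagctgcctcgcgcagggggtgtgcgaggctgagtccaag
SPRY4, chr5:142324198-142324497 (- strand): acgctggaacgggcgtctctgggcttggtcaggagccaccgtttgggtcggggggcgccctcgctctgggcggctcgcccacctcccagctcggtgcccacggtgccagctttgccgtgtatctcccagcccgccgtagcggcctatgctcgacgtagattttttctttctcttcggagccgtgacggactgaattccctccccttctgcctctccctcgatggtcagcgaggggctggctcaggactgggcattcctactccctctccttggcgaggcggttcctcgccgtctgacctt
SPRED1, chr15:38252586-38252885 (+ strand): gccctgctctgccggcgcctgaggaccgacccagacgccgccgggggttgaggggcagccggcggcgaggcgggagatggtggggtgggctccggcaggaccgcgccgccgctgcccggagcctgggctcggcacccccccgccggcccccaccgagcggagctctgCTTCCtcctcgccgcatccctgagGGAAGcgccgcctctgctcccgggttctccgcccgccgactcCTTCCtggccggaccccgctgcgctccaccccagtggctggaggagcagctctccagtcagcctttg
SPRED2, chr2:65432550-65432849 (- strand): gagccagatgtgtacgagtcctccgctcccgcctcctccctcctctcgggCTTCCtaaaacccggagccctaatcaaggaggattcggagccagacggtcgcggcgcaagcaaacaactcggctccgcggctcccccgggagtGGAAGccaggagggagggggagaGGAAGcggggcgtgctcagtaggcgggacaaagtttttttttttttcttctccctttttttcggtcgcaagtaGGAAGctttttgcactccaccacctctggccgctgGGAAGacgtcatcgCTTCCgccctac

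In SPRED2 the copies lay from 200 bases before to 43 bases after the start site, in SPRED1 from 83 to 13 bases before it, and in DUSP6 at 210 to 206 and 62 to 58 bases before it. The log2 fold change at D10, given below for each gene, was 1.35 for SPRY4 and 0.98 for SPRY1, which held no copy. It was 0.77 for SPRY2 with 1 copy, 1.03 for DUSP6 with 2, -0.19 for SPRED1 with 3 and 0.54 for SPRED2 with 6. DUSP4, DUSP5, ETV4 and ETV5 had no window, and a relation of copies to change was not tested. A matching word is a description of the letters in the window and no evidence of a bound factor.

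**Figure D1:**
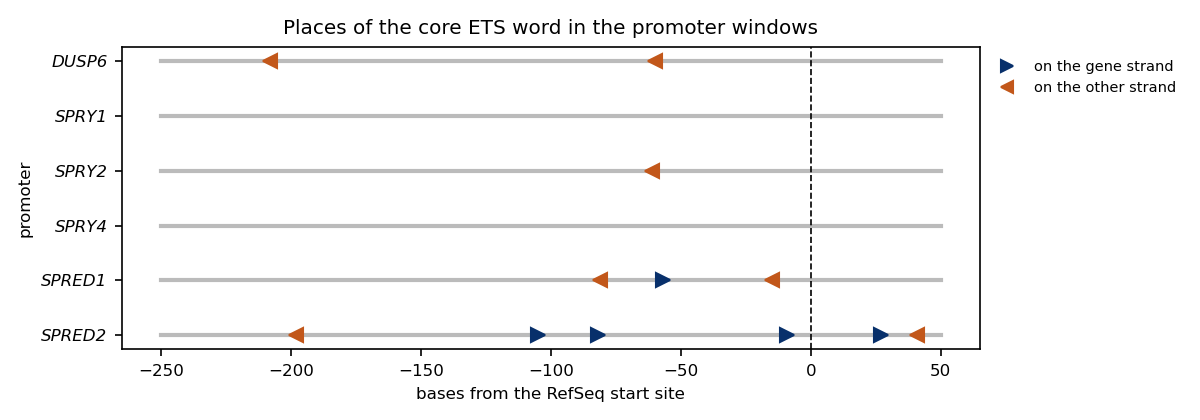
Places of GGAAG in the 6 promoter windows, with distance from the RefSeq start site in bases on the horizontal axis and a row per gene. Arrowheads pointing right stand on the strand of the gene and those pointing left on the other strand, and SPRED2 has 6 of them against none in SPRY1 and SPRY4.

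The 8 libraries held 11708193 to 13395912 counts. Fibroblast markers were abundant in all of them, but the library D10 of experiment 2 stood apart. Its summed level of 9 fibroblast markers was 10060 CPM (counts scaled to library size) against 30280 to 46800 in the other 7, and its total was the lowest. The collagen genes COL1A1 and COL1A2 were at 1295 and 2862 CPM there, against 9432 and 12386 in D10 of experiment 1. PDGFRA (427) and LUM (258) lay within the range of the other libraries, while each other marker was lowest there. The 9 markers had a median log2 fold change at D10 against D0 of -0.77. With the replicate block edgeR called 2 of them lower, the growth factor receptor gene PDGFRB (-1.40, adjusted p 0.0181) and the proteoglycan gene DCN (-1.75, 0.0362). Without the block edgeR called 0 (PDGFRB -1.37, 0.151, and DCN -1.55, 0.484), with 2 of the 9 at an unadjusted p under 0.05. DESeq2 called PDGFRB (0.00691). PDGFRB was at 481 and 437 CPM in the D0 libraries and at 236 and 120 CPM in the D10 libraries, so that both D10 libraries, and not only that of experiment 2, were lower. Epithelial markers reached at most 12 counts. Of the 3 leukocyte markers in the table PTPRC had 0 or 1 count, CSF1R at most 5 and CD14 12 to 32, with a D10 value of -0.34 that was not called (adjusted p 0.998). Among endothelial markers PECAM1, CDH5 and KDR had at most 13 counts while TEK had 520 to 1522, and the smooth muscle markers MYH11 and DES had at most 17. MYH11 had 12 and 17 counts in D0 and 2 and 0 in D10, and was called lower with the block (edgeR adjusted p 0.0356) and not without it (0.139). HRAS, given as a check because the donor cells carry a RAS transgene, was at 33.2 to 66.1 CPM over the 8 libraries, with 54.3 and 37.9 CPM in D0 and 47.7 and 33.8 CPM in D10. The part of these features in the results was not tested, and values without D10 of experiment 2 are given where they differ.

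Each medium was set against D0 to ask whether ERK output genes differ in cells that receive senescent medium. The medians of the 10 log2 fold changes were 0.67 at D4, 0.86 at D7 and 0.87 at D10, while over all genes tested they were 0.0088, -0.00041 and 0.0037. Since the choice of genes was not blind to these data, shares and medians over all genes are given as a description. At D10 DUSP4, DUSP6, SPRY1, SPRY2, SPRY4 and ETV4 were called when the experiment was a term of the fit, and DUSP5, SPRED1, SPRED2 and ETV5 were not. Without that term edgeR's quasi-likelihood test called 0 of the 10 genes after Benjamini-Hochberg adjustment at D4, D7 or D10, against 0%, 0% and 0.29% of all genes tested. At an unadjusted p under 0.05 it held 5, 6 and 6 of the 10, against 2.96%, 4.34% and 7.94% of all genes. Bulk RNA cannot tell more cells with a transcript from more transcript per cell.

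The replicate numbers mark the 2 experiments, and with them as a block edgeR called 1 gene at D4 (SPRY2), 4 at D7 (DUSP4, DUSP6, SPRY2 and SPRY4) and 6 at D10, all higher than D0, against 0.275%, 1.25% and 4.99% of all genes in either direction. DESeq2 without the block called DUSP4 at D4, DUSP4, DUSP6 and SPRY4 at D7, and DUSP4, DUSP6, SPRY4 and ETV4 at D10, where its shares over all genes with an adjusted p were 0.287%, 0.785% and 2.17%. Both libraries stood above both D0 libraries for 7, 6 and 7 of the 10 genes, and for 9.73%, 13.7% and 15% of all genes. The 3 comparisons share the D0 libraries. The blocked counts rested on single libraries: at D10 the count was 0 without D0 of experiment 2 and 2 (DUSP4 and ETV4) without D0 of experiment 1, where the share over all genes was 0.789% and 2.23%. It was 5 to 7 without any other library, against 3.42% to 13.3% of all genes, and 6 without D10 of experiment 2, against 6.32%. At D7 the count was 0 without D0 or D7 of either experiment (0% to 0.341% of all genes), 2 without D4 of either (0.787% and 0.794%) and 7 without D10 of either (5.49% and 5.7%). At D4 it was 0 without D0, D4 or D7 of either (0% to 0.0139%) and 5 without D10 of either (3.18% and 3.42%).

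**Figure D2:**
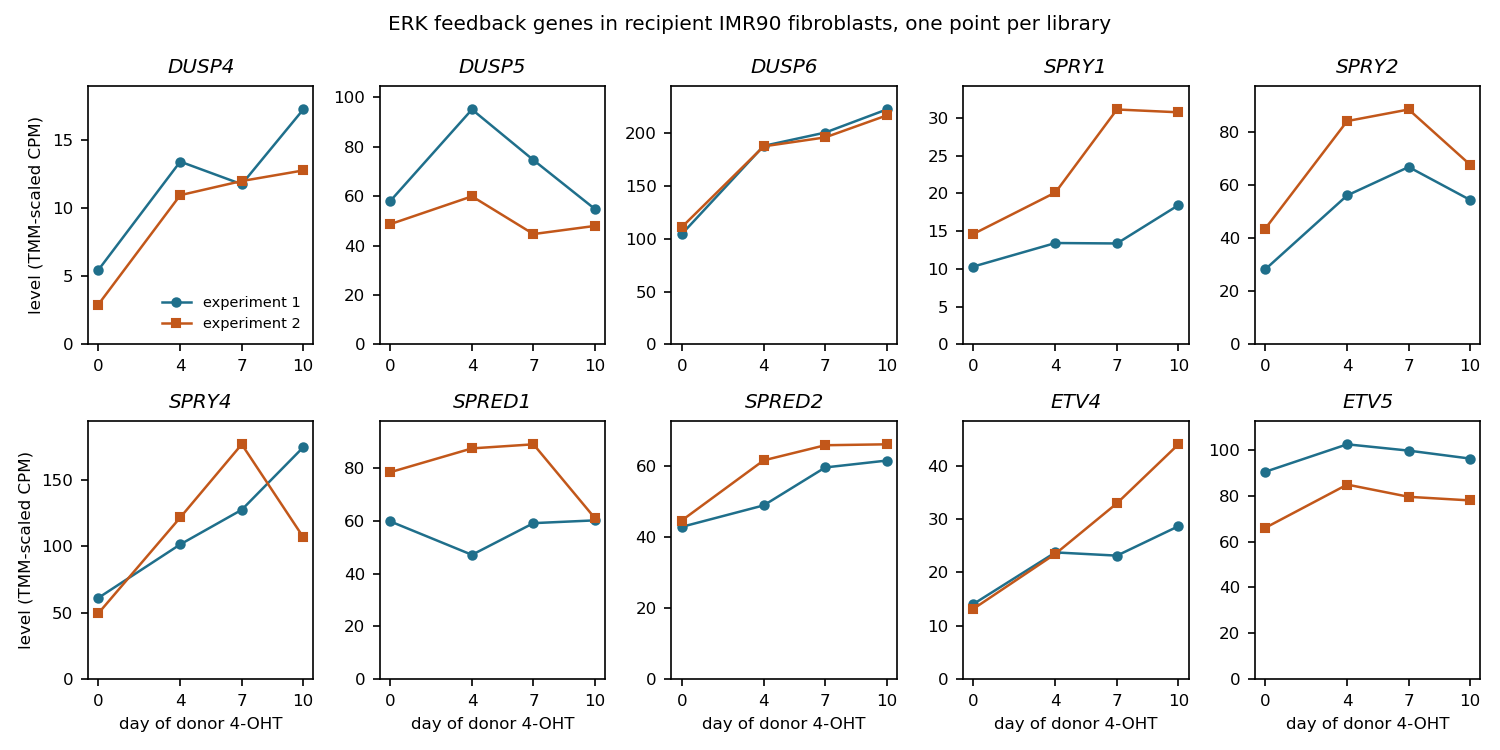
Level of each gene in TMM-scaled CPM (vertical axes, from 0) against the day of donor 4-OHT, with a point per library, circles for experiment 1 and squares for experiment 2. DUSP6 follows nearly the same path in both experiments, while SPRY1, SPRY2 and ETV5 run at different levels in the 2 experiments.

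DUSP6, the cytoplasmic phosphatase specific for ERK, was at 104 CPM in experiment 1 and 111 CPM in experiment 2 in D0, at 188 in both D4 libraries, at 201 and 196 in D7, and at 223 and 217 in D10. Every D4, D7 and D10 library was above both D0 libraries, and the means went from 108 ± 4.66 to 220 ± 3.99 CPM (SD, n = 2) from D0 to D10. Its log2 fold change was 0.80 (SE 0.20) at D4, 0.88 (SE 0.20) at D7 and 1.03 (SE 0.20) at D10, and leaving out any library kept the D10 value between 0.99 and 1.07. The adjusted p at D10 was 0.0852 with edgeR, 0.00448 with the block and 8.0e-04 with DESeq2, and at D7 it was 0.355, 0.0263 and 0.0162. At D4 none of the 3 passed (0.856, 0.0639 and 0.0934).

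DUSP4, a nuclear phosphatase of ERK and related kinases, had the largest fold change of the 10 genes at D10 in the fit with all 8 libraries, and the lowest level per kilobase of exon. At D7 in experiment 1 SPRY2 had a larger change (2.37-fold against 2.16-fold). Its gene (ENSG00000120875.8) lies on the minus strand of chromosome 8 from 29333064 to 29350668. It had 65 and 40 counts (5.45 and 2.91 CPM) at D0, 173 and 147 counts (13.4 and 11.0 CPM) at D4, 154 and 158 counts (11.8 and 12.0 CPM) at D7 and 218 and 162 counts (17.3 and 12.8 CPM) at D10. The groups did not overlap with D0 on any day. The log2 fold change was 1.55 (SE 0.35) at D4, 1.51 (SE 0.35) at D7 and 1.85 (SE 0.35) at D10. At D10 edgeR gave an adjusted p of 0.0834, 0.00442 with the block, and DESeq2 gave 7.8e-04. Without D0 of experiment 2 the D10 value was 1.46 and without D0 of experiment 1 it was 2.36.

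DUSP5, a nuclear phosphatase specific for ERK, was not called on any day. It was at 57.9 and 48.6 CPM in D0, 95.1 and 59.9 in D4, 74.6 and 44.7 in D7, and 54.8 and 48.0 in D10. Both D4 libraries were above both D0 libraries, and the D7 and D10 groups overlapped with D0. The log2 fold change was 0.54 (SE 0.32, 95% interval -0.19 to 1.28) at D4 and -0.05 (SE 0.32, interval -0.79 to 0.68) at D10. The edgeR adjusted p was 1 at D4 and 0.998 at D10, and 0.414 and 0.921 with the block. In the fit without the block, changes up to the bounds of these intervals could not be told from none. With the block the D4 value was 0.51 (95% interval 0.12 to 0.90, unadjusted p 0.0159), and the D10 value was -0.05 (interval -0.44 to 0.34). The D4 change within experiments was 1.64-fold and 1.23-fold.

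Sprouty proteins are inhibitors of receptor signalling to RAS and RAF. SPRY4 was at 61.1 and 49.4 CPM in D0, 101 and 122 in D4, 127 and 177 in D7, and 175 and 107 in D10. All later libraries exceeded both D0 libraries, but the experiments parted at D10, where experiment 1 was at its highest and experiment 2 lower than at D7. The log2 fold change was 1.01 (SE 0.30) at D4, 1.46 (SE 0.31) at D7 and 1.35 (SE 0.31) at D10. At D7 edgeR gave an adjusted p of 0.31, 0.0413 with the block, and DESeq2 gave 0.00468, and at D10 the values were 0.132, 0.0234 and 0.00664. Within experiments the D10 log2 change was 1.51 in experiment 1 and 1.11 in experiment 2, and the fitted value was 1.66 without D10 of experiment 2 and 0.97 without D10 of experiment 1.

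SPRY2 was at 28.2 and 43.6 CPM in D0, 56.2 and 84.3 in D4, 66.9 and 88.6 in D7, and 54.5 and 67.8 in D10. Experiment 2 was higher on each day, and in both experiments the D7 library was highest. The change within experiments was 1.99-fold and 1.93-fold at D4, 2.37-fold and 2.03-fold at D7 and 1.93-fold and 1.55-fold at D10. The log2 fold change was 0.97 (SE 0.31) at D4, 1.11 (SE 0.31) at D7 and 0.77 (SE 0.31) at D10, and edgeR's adjusted p was 1, 0.607 and 0.562. With the block it was 0.0367, 0.012 and 0.015, and SPRY2 was the only one of the 10 genes that the block called at D4. The D10 value was 0.49 without D0 of experiment 1.

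SPRY1, the lowest of the 3 Sprouty genes per kilobase of exon, was at 10.3 and 14.6 CPM in D0, 13.4 and 20.1 in D4, 13.4 and 31.1 in D7, and 18.4 and 30.8 in D10. The D10 libraries lay above both D0 libraries, while at D4 and D7 the library of experiment 1 lay below the D0 library of experiment 2. The D10 log2 fold change was 0.98 (SE 0.45), with an adjusted p of 0.687 from edgeR, 0.0328 with the block and 0.681 from DESeq2. It was 0.56 without D10 of experiment 2 and 1.32 without D10 of experiment 1.

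**Figure D3:**
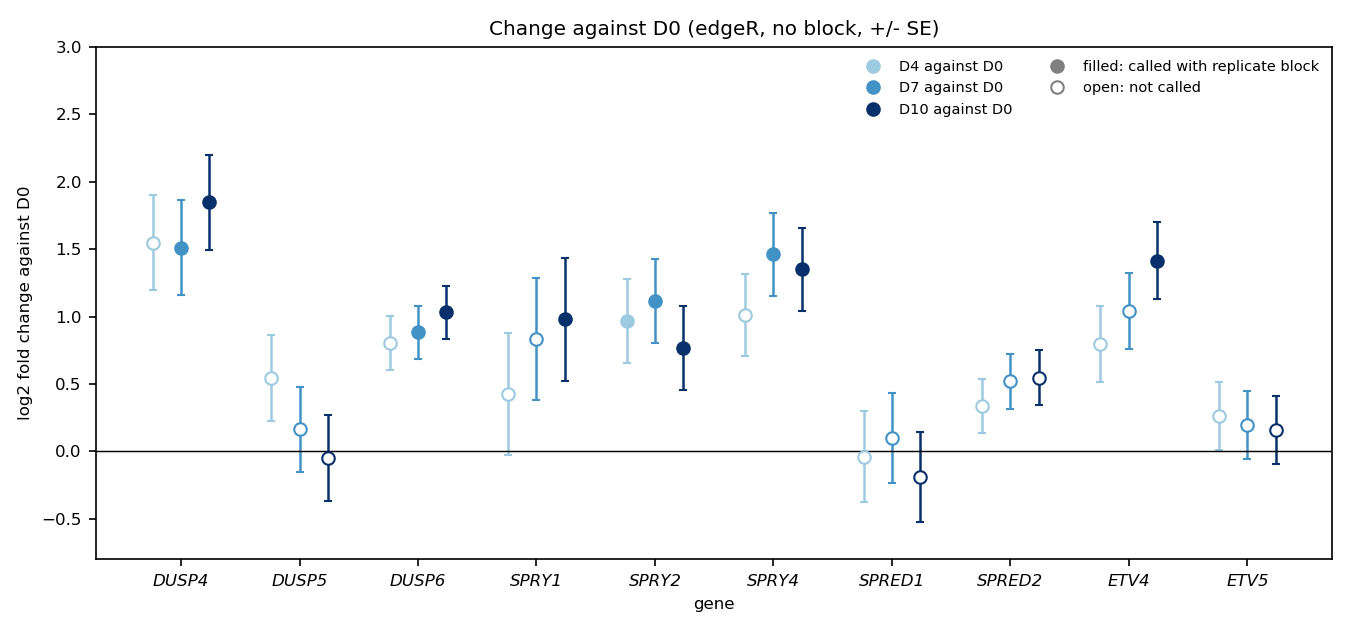
Log2 fold change of each gene against D0 at D4, D7 and D10 (vertical axis, edgeR without the block, bars are standard errors, light to dark for D4 to D10). Filled points were called with the replicate block (adjusted p under 0.05), which holds for 1 gene at D4, 4 at D7 and 6 at D10, while DUSP5, SPRED1, SPRED2 and ETV5 are open throughout.

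Spred proteins are membrane-bound relatives of Sprouty, and SPRED1 brings the RAS inhibitor neurofibromin to the membrane. SPRED1 was at 59.8 and 78.4 CPM in D0, 47.1 and 87.5 in D4, 59.1 and 89.0 in D7, and 60.2 and 61.0 in D10. The groups overlapped with D0 on each day. The D10 log2 fold change was -0.19 (SE 0.34, 95% interval -0.97 to 0.59), and it was 0.013 without D0 of experiment 2 (edgeR adjusted p 0.998, with the block 0.731).

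SPRED2 was at 42.9 and 44.7 CPM in D0, 49.0 and 61.7 in D4, 59.7 and 65.9 in D7, and 61.6 and 66.2 in D10. Both libraries were above both D0 libraries on all 3 days. The log2 fold change was 0.34 (SE 0.20) at D4, 0.52 (SE 0.20) at D7 and 0.54 (SE 0.20) at D10, or 1.44-fold and 1.48-fold within the experiments at D10. It did not pass the threshold in any fit with all 8 libraries, with an adjusted p at D10 of 0.486 from edgeR, 0.0563 with the block and 0.686 from DESeq2. With the block it was called at D7 when either D10 library was left out, and at D10 without D4 of experiment 1.

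Of the PEA3 group factors, ETV4 was at 14.1 and 13.2 CPM in D0, 23.7 and 23.5 in D4, 23.1 and 33.0 in D7, and 28.7 and 44.0 in D10. No later library overlapped with D0, and the experiments diverged at D7 and D10. The log2 fold change was 0.79 (SE 0.28) at D4, 1.04 (SE 0.28) at D7 and 1.42 (SE 0.28) at D10. The adjusted p at D10 was 0.0947 from edgeR, 0.00783 with the block and 0.00354 from DESeq2. Without D10 of experiment 2 the D10 value was 1.07 and without D10 of experiment 1 it was 1.71.

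ETV5, the closest relative of ETV4 among the 10, was at 90.5 and 66.0 CPM in D0, 103 and 84.9 in D4, 99.8 and 79.6 in D7, and 96.3 and 78.0 in D10. Within each experiment every later library was above D0, by 1.06-fold to 1.29-fold, but the groups overlapped, with experiment 1 higher on each day. The D10 log2 fold change was 0.16 (SE 0.25, 95% interval -0.43 to 0.74, edgeR adjusted p 0.998), and with the block it was 0.16 (interval -0.13 to 0.46, adjusted p 0.569). A value of 1.03, that of DUSP6 at D10, lay outside both intervals. The 95% interval of DUSP6 itself was 0.57 to 1.49 without the block, which overlapped that of ETV5. With the block it was 0.72 to 1.34, which did not. A difference between the 2 genes was not tested.

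The steps between successive media were also tested. From D4 to D7 the tests called 0 of the 10 genes, with edgeR (0% of all genes), at an unadjusted p under 0.05 (0.42%), with the block (0%) and with DESeq2 (0.00361%). From D7 to D10 they again called 0, against 0%, 3.54%, 0.319% and 0.446% of all genes in the same order. For DUSP6 the D4 to D7 step was 0.08 on the log2 scale (95% interval -0.37 to 0.53) and the D7 to D10 step 0.15 (interval -0.31 to 0.60). For ETV4 the steps were 0.25 (SE 0.28) and 0.37 (SE 0.28), and for SPRY2 0.15 (SE 0.31) and -0.35 (SE 0.31), which with the block had an unadjusted p of 0.0359 and an adjusted p of 0.442.

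Per kilobase of exon, the only scale on which levels of different genes are compared here, DUSP6 was highest at D0 with 23.3 ± 1.01 CPM per kb (SD, n = 2), followed by DUSP5 with 20.4 ± 2.51, ETV5 with 13.5 ± 2.98 and SPRY2 with 11.8 ± 3.58. SPRED2, SPRY4 and SPRED1 followed with 8.50, 8.42 and 8.37 CPM per kb, then ETV4 with 3.78, SPRY1 with 3.15 and DUSP4 with 0.576. The D0 libraries of ETV5 and SPRY2 overlapped, as did those of SPRED2, SPRY4 and SPRED1 and those of ETV4 and SPRY1, and a D0 library of SPRY2 (9.29) also lay below 1 of SPRY4 (9.30) and 1 of SPRED1 (9.49), so the order from ETV5 to SPRED1 and that of ETV4 and SPRY1 is not resolved. At D10 DUSP6 was at 47.5 ± 0.861 CPM per kb, above every library of the other 9 genes, the highest of which was SPRY4 of experiment 1 at 26.6. DUSP4 was again the lowest, with 2.07 ± 0.437.

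**Figure D4:**
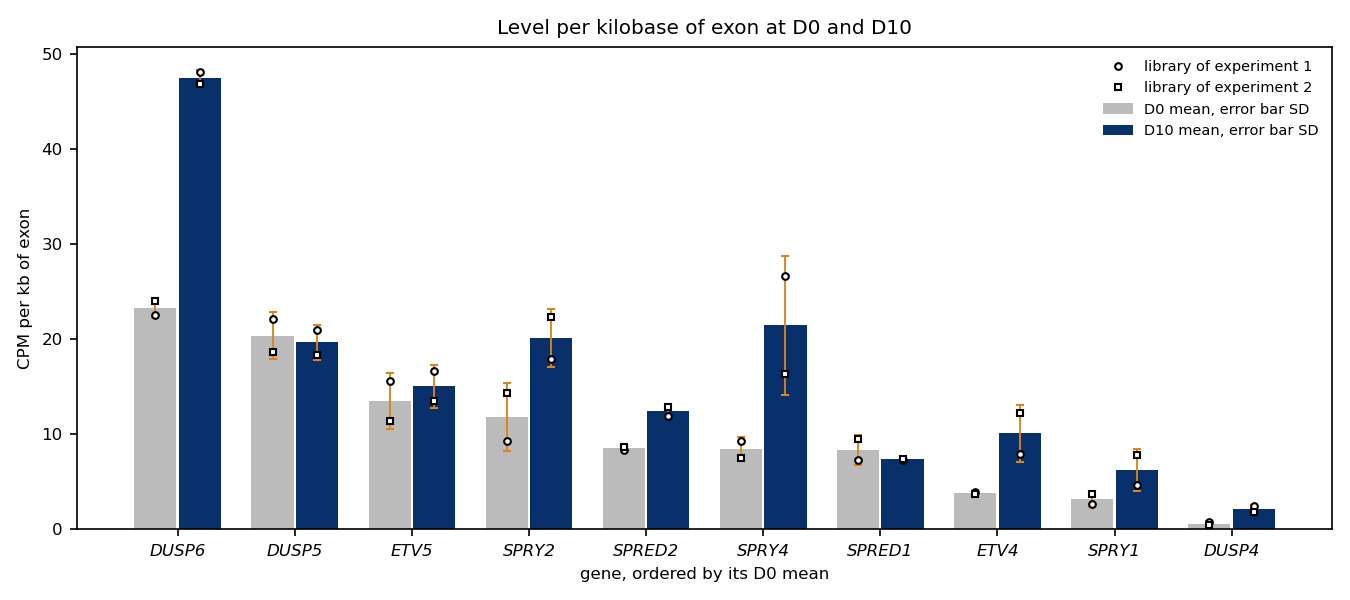
Level per kilobase of exon (vertical axis, TMM-scaled CPM per kb, from 0) at D0 (grey bars) and D10 (blue bars), with bars for the mean of 2 libraries, orange lines for the SD and a symbol per library. DUSP6 goes from 23.3 to 47.5 while DUSP5, next to it at D0, is at 20.4 and 19.7.

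The 2 experiments differed for many genes, and the ERK feedback genes differed in how far they followed. In a fit with medium and experiment as terms edgeR called 5 of the 10 genes between experiments, against 34.8% of all genes tested: SPRY1 (1.70-fold higher in experiment 2, adjusted p 0.0058), SPRY2 (1.40-fold, 0.00777) and SPRED1 (1.39-fold, 0.0307) were higher in experiment 2, and DUSP5 (1.38-fold, 0.0192) and ETV5 (1.26-fold, 0.0223) were higher in experiment 1. DUSP6 differed by 0.003 on the log2 scale (SE 0.10) and SPRY4 by -0.07 (SE 0.19). Without D0 or D7 of either experiment 2 of the 10 were called (14.8% to 23.9% of all genes), and without D4 of either 3 were (20.8% and 20.9%).

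Larger differences lay in some of the immediate early genes, the quick transcriptional targets of ERK and other kinases. Others differed less or were not called. IER2 was 1.81-fold and IER3 1.52-fold higher in experiment 2 (edgeR adjusted p 0.00535 and 0.0243). EGR2 (2.62-fold, 0.0766) and MYC (1.05-fold, 0.711) were not called, and FOSL1 was lower in experiment 2 (0.70-fold, 0.0126). FOS had 7, 11, 10 and 31 counts in experiment 1 and 3643, 3290, 4465 and 2581 in experiment 2 at D0, D4, D7 and D10, and was 225-fold higher in experiment 2 (edgeR adjusted p 5.4e-05). FOSB was 61.6-fold and EGR1 13.8-fold higher (both 5.4e-05). DUSP1, an immediate early member of the DUSP family, was 3.50-fold higher (1.5e-04), with 54.4 to 70.5 CPM in experiment 1 and 208 to 216 in experiment 2. The groups of FOS libraries split by experiment and not by medium, while DUSP6 split by medium and not by experiment. Why the experiments differ was not tested, and the labels give no further detail of how they were run.

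**Figure D5:**
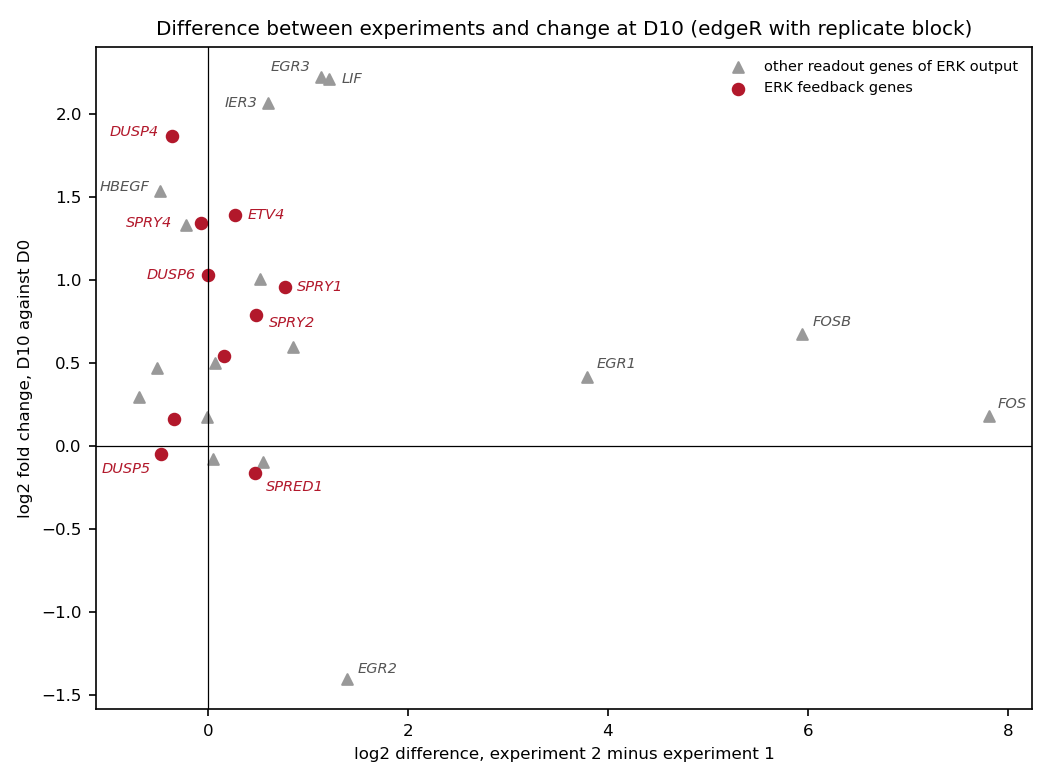
Log2 difference of experiment 2 minus experiment 1 (horizontal axis) against log2 fold change at D10 against D0 (vertical axis), both from edgeR with the replicate block, for the 10 ERK feedback genes (red circles) and 17 other readout genes of ERK output (grey triangles). FOS, FOSB and EGR1 lie far to the right at 7.81, 5.95 and 3.79, and the feedback genes lie between -0.46 and 0.77.

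Of 18 other genes often used to read ERK output 17 were tested, and at D10 their median was 0.51 on the log2 scale. Without the block edgeR called 0 of them at D10 (6 at an unadjusted p under 0.05), against 0.29% (7.94%) of all genes. With the block 6 were called higher and 0 lower, against 4.99% of all genes in either direction. They were PHLDA1 (1.06, adjusted p 0.0256), EGR3 (2.30, 0.0464), IER3 (2.15, 0.00271), HBEGF (1.56, 0.0058), PLAUR (1.32, 0.00333) and LIF (2.19, 6.6e-04). Each is given with the log2 fold change from the fit without the block and the edgeR adjusted p with it. EGR3 had low counts, 5 and 7 in D0 and 13 and 46 in D10, with the 46 in experiment 2. DESeq2 called 4 of the list, against 2.17% of all genes. These shares over all genes also hold for the lists below. HBEGF, a ligand of the EGF receptor, was at 14.5 and 13.2 CPM in D0, 31.8 and 27.0 in D4, 38.4 and 19.2 in D7, and 48.1 and 33.9 in D10, so that every later library exceeded both D0 libraries. LIF, a cytokine of the interleukin 6 family, was at 86.6 and 242 CPM at D0 and 423 and 1074 at D10. The lowest values of the list without the block were EGR2 (-1.26) and FOS (-0.37), which were not called. EGR2 had only 1 to 15 counts per library. For FOS the value was -0.37 (SE 2.82) without the block and 0.18 (SE 0.45) with it, so its sign depended on the fit.

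Of 11 further members of the same gene families 9 were tested, with a median of 0.0030 at D10. Without the block edgeR called 0 of them (3 at an unadjusted p under 0.05, and 0 with DESeq2), and with it 1 was called higher and 1 lower. SPRED3, the third Spred gene, was at 25.8 and 20.6 CPM at D0 and 48.3 and 30.8 at D10 (log2 fold change 0.77, edgeR adjusted p 0.417, with the block 0.0347). DUSP14, an atypical dual-specificity phosphatase, was at 91.8 and 69.0 CPM at D0 and 57.8 and 43.1 at D10 (-0.67, 0.537, with the block 0.0184). ETV1, the remaining PEA3 group factor, was at 18.0 and 18.8 CPM at D0 and 55.0 and 31.1 at D10, a log2 fold change of 1.23 that was not called (0.43, with the block 0.115). DUSP10 was the next lowest after DUSP14 at -0.29, and DUSP1 had -0.03 (SE 0.90 without the block, 0.15 with it).

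The 28 genes of the cascade itself, from adaptors through RAS, RAF, MEK and ERK to the RSK kinases and ternary complex factors, had a median of 0.10 at D10. Without the block edgeR called 0 of them (3 at an unadjusted p under 0.05, and 0 with DESeq2), and with it 1, RPS6KA3, which encodes the ERK substrate RSK2, at 0.74 (adjusted p 0.86, with the block 0.0208). ELK3, a ternary complex factor, had 0.75 (0.612, with the block 0.0766), and the lowest were the adaptor gene GAB1 at -0.42 and MAPK3, which encodes ERK1, at -0.33. HRAS had -0.18 (adjusted p 0.998). Of the 6 proliferation genes edgeR called 0 at D10 with or without the block (0 at an unadjusted p under 0.05 without it, and 0 with DESeq2), with MKI67 at 0.21, TOP2A at -0.07, CDK1 at -0.73 and CCNB1 at -0.34. Their summed level was highest in the D4 library of experiment 2, at 153 CPM against 82.5 to 138 in the other 7.

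By Pearson correlation of log2 CPM over the 8 libraries, the genes most like DUSP6 were TPBG (r = 0.97), C2CD2 (0.96) and HMGA2 (0.96). Those most like SPRY4 were FMNL3 (0.99), COL13A1 (0.99) and LPAR3 (0.98), and those most like ETV5 were GPR157 (0.98), PSMD2 (0.98) and TRAPPC5 (0.98). Among the 10 genes themselves DUSP6 had r = 0.93 with DUSP4, 0.89 with SPRY4, 0.89 with ETV4 and 0.88 with SPRED2, but 0.14 with DUSP5 and -0.11 with SPRED1. DUSP5 was nearest to ETV5, at 0.77. The points share medium, experiment and library, and these values are a description of 8 libraries chosen from all genes tested.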

How the data were processed

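Poly(A) RNA of 8 libraries was sequenced with a stranded kit. The submitters' processing notes name STAR 2.5, DESeq2 and GRCh38 (hg38), and the counting program and its strand setting are not given in the sources used here. The authors deposited whole-number counts per gene, used as deposited, and 8 RPM columns that were not used. The header "DO rep1" was read as D0 rep1, and 2 libraries per group came from 2 independent experiments.

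Counts were fitted in edgeR 4.0.16 (R 4.3.3) over all 8 libraries by group, after filterByExpr (13798 of 27696 genes kept) and TMM scaling, with the quasi-likelihood test, Benjamini-Hochberg adjustment over all genes tested and a threshold of 0.05. CPM is TMM-scaled. The total of 11708193 to 13395912 counts limits precision for low genes such as DUSP4. Same-numbered libraries deviated together (correlations across genes of 0.418 to 0.722 in 6 pairs of groups), and the labels name 2 experiments, so values with the replicate block are given where they change a call. With 2 libraries a group, p-values measure the spread between these cultures. DESeq2 1.42.0 was an alternative. Scripts were tested on simulated data.

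Positions, exon lengths and overlaps came from GENCODE 29, which holds 99.6% of the table's gene IDs, and promoters from RefSeq GRCh38.p14. Named genes were the 10 genes, and of each list of family, cascade, readout and proliferation genes those called at D10 with or without the block and the 2 highest and 2 lowest. Outside this rule, HRAS was named as a check. DUSP1, FOSB, EGR1, IER2, MYC and FOSL1 were named, also outside it, to describe the difference between experiments. Cell type markers were named after their values were seen. The 10 genes and the lists were chosen with earlier results of these data known.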

Additional observations from a re-analysis of the deposited data

How the results depend on the processing

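Calls among the 10 genes depended on how the spread was estimated. Without the replicate block edgeR called 0 at D4, D7 and D10, and 0 whichever library was left out. With the replicate block it called 1, 4 and 6, against 0.275%, 1.25% and 4.99% of all genes. DESeq2 called 1, 3 and 4, against 0.287%, 0.785% and 2.17%. With no filter on low counts edgeR called 1 at D7 and 3 at D10, and the share over all genes was not computed for that setting. The other planned settings moved none of the counts at D4, D7 and D10. Leaving out 1 library gave 2 to 5 calls between experiments, against 14.8% to 39.2% of all genes. In the blocked fit, where leaving out a library was chosen after seeing the data, it gave 0 to 5 calls at D4 (0% to 3.42% of all genes), 0 to 7 at D7 (0% to 5.7%) and 0 to 7 at D10 (0.789% to 13.3%). Of 420 single-gene values under other settings 387 kept direction and side of the threshold, 23 newly passed it and 10 changed sign, and none could lose a call since the fit without the block made none. The sign changes came from leaving out a library: DUSP5 ran from -0.25 to 0.49 at D7 and from -0.18 to 0.079 at D10, ETV5 from -0.014 to 0.44 at D7 and from -0.059 to 0.40 at D10, and SPRED1 from -0.55 to 0.34 at D4, from -0.22 to 0.37 at D7 and from -0.37 to 0.013 at D10. Depth limits DUSP4, with 40 to 218 counts per library. The blocked fit changed no other call of the 10 genes.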
